A study of Homo sapiens with 6 samples.

Results

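Aminoacyl-tRNA synthetases were followed on 6 expression arrays of A549, a human cell line from a lung adenocarcinoma, after silencing of the long noncoding RNA LINC00525. Genes were taken as members when their single annotated symbol, brought up to date by gene identifier, was on a list of 35 synthetase genes, and the probe set with the highest mean over the 6 arrays stood for each gene. All 35 were measured, among 18132 genes in all, and none was lost to a filter, since none was applied. Of these, 19 encode the cytosolic enzymes and 16, whose symbols end in 2, the mitochondrial ones. GARS1 and KARS1, counted here as cytosolic, are known to supply both compartments. The study compared 3 control arrays with 3 LINC00525-silenced arrays, called silenced arrays here. Both groups are A549 cells kept in the same medium. The treatment text speaks of small interfering RNA against a scrambled control, the titles mark both groups as sh, and the genotype fields of silenced replicates 2 and 3 name LINC00526 and LINC00527. The labels give neither a time after treatment nor whether each array had a culture of its own. The p-values therefore rest on a spread between arrays that may be technical. Values are log2 array signals, and a difference is the silenced mean minus the control mean and is relative to the array's other genes.

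Aminoacyl-tRNA synthetases join each amino acid to its tRNA, the step that fixes the meaning of the genetic code. Cytosol and mitochondria use mostly separate, nuclear-encoded sets, and several cytosolic enzymes sit together in a multi-synthetase complex. When amino acids run short or the endoplasmic reticulum is stressed, phosphorylation of eIF2 alpha raises the transcription factor ATF4, which is known to switch on many cytosolic synthetase genes through C/EBP-ATF response elements. WARS1, the tryptophan enzyme, is also a classical gene of the interferon gamma response.

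Promoter sequences show which members hold these elements near their starts. RefSeq windows of GRCh38.p14, from 250 bases before to 50 bases after a start, were found for 30 members and not for AARS2, LARS1, VARS1, VARS2 or YARS1. The C/EBP-ATF letters TGATGNAAN, searched on both strands, were in the windows of 7 of 16 cytosolic members (43.8%) and 1 of 14 mitochondrial ones (7.14%), against 4.45% of the 27305 genes in the table. Shown here are these stretches on the strand of the gene, 5′ to 3′, with the match in capitals and 10 bases on each side, because they show how alike the matches are. For GARS1 and TARS1 the start used is an inner one, and the match lies within the annotated gene (chr7:30594735-30634033 and chr5:33440696-33468091).
AARS1 (chr16:70289676-70289704, minus strand, match begins 188 bases before the start): ttttctcgcaGTTGCATCAgccaagttag
CARS1 (chr11:3057408-3057436, minus strand, 3 bases before): cggggcggcgGTTGCATCAgattctagga
GARS1 (chr7:30594834-30594862, plus strand, 34 bases before): ttacgcggcgATTTCATCAtgctccgagc
IARS1 (chr9:92293693-92293721, minus strand, 14 bases before): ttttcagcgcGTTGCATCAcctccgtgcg
MARS1 (chr12:57488053-57488081, plus strand, 5 bases before): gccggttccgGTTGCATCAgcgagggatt
NARS1 (chr18:57621804-57621832, minus strand, base 15 counted from the start): ctacgctctcTGATGCAACgccggaatcg
TARS1 (chr5:33440956-33440984, plus strand, base 2 counted from the start): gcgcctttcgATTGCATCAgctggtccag
YARS2 (chr12:32756076-32756104, minus strand, 197 bases before): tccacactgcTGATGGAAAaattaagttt

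WARS1 has 2 annotated starts in that table, and the stretches before both are shown because the interferon letters lie before only the inner one. The capitals mark a GAS element, TTCNNNGAA, 142 bases before the inner start and an interferon-stimulated response element (TTTC, any 2 bases and TTTC again, here on the other strand) 55 bases before it. The inner start lies within the annotated gene (chr14:100333790-100376327). Both lines give the 250 bases before a start on the strand of the gene.
WARS1 outer start (chr14:100376328-100376577, minus strand): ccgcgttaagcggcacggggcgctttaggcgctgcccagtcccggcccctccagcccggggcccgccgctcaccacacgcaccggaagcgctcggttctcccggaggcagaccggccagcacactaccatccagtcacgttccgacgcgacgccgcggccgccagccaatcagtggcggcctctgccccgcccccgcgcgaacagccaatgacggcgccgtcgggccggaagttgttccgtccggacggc
WARS1 inner start (chr14:100375348-100375597, minus strand): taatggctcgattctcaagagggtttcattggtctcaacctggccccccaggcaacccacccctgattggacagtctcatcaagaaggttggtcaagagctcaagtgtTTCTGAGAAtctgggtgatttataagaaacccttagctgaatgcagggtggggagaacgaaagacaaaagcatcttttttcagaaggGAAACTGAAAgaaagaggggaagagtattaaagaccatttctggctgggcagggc
The response element letters were in the windows of 4.38% of all genes in the table, and among members only WARS1 and EARS2 held them. GAS letters were found for 9.38% of all genes and for WARS1, WARS2, CARS1, TARS1 and PARS2. The E-box CACGTG, which MYC family proteins bind, was in 1 of 16 cytosolic members (IARS1) and 3 of 14 mitochondrial ones (CARS2, EARS2 and MARS2), against 8.77% of all genes. The CARS2 window likewise lies within the annotated gene (chr13:110641410-110713522). CCAAT, the letters of the NF-Y box, were held by 7 and 9 of them, against 39.7%. Matches describe these windows and are not sites shown to be bound.

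LINC00525 itself read 3.86, 3.74 and 3.97 on control arrays and 3.67, 3.45 and 3.54 on silenced arrays. The groups did not overlap, the difference was -0.30 ± 0.075 (SE; limma adjusted p = 0.0372), and the exact permutation test on the 6 values gave p = 0.1, the smallest it can give. Without control replicate 1 or 3 or silenced replicate 2 or 3 the call was lost (limma adjusted p of 0.096 to 0.111). The signal was close to that of the array's 17 Tag controls, built to hybridize with no human RNA, whose averages ran from 2.26 to 4.65. CDKN1A, the p21 gene of the series title, differed by 0.55 ± 0.055 (SE; limma adjusted p = 0.00089; exact permutation p = 0.1). Keratins KRT8, KRT18 and KRT7, epithelial markers, read 11.43 to 12.45 on control arrays, while KRT19, CDH1 and EPCAM read 9.28, 8.54 and 5.43. KRT8 fell by 0.15 and KRT19 rose by 0.29 (limma adjusted p = 0.0474 and 0.00409), and the other 4 were not called. Of 13 measured fibroblast, leukocyte and endothelial markers, 12 lay at or below 4.68 in control cells, and none of the 13 was called. The exception was the leukocyte marker CD14, which read 6.25 there, above EPCAM. In RNA from whole cultures, fewer cells and less RNA per cell cannot be told apart. Over all genes, 12.6% passed an adjusted p under 0.05 (limma, Benjamini-Hochberg over the 18132 genes), 5.77% as rises and 6.83% as falls. Rises were 45.8% of the calls, 57.8% after cyclic loess, 5.59% with arrays scaled to the poly-A controls and 1.51% with arrays scaled to the hybridization controls. Bacterial hybridization controls read 0.28 higher and poly-A controls 0.14 higher on silenced arrays, so the zero of every difference depends on the scaling: the median of all genes moved from -0.01 to -0.29 and -0.15 when arrays were scaled to them. The 3′ minus 5′ signal was 0.42 ± 0.035 for actin on control and 0.43 ± 0.029 on silenced arrays, and -0.13 ± 0.015 and -0.16 ± 0.0058 for GAPDH (SD, n = 3).

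Among the synthetases, WARS1 and SARS1 rose, FARSA, MARS2 and RARS2 fell, and the other 30 members did not pass. All 5 changes were under 1.2-fold. Of the 19 cytosolic genes 2 rose (10.5%) and 1 fell (5.26%), and of the 16 mitochondrial genes 0 rose and 2 fell (12.5%; limma adjusted p under 0.05). At an unadjusted p under 0.05 there were 5 cytosolic and 9 mitochondrial genes, 26.3% and 56.2% of each class, against 26.5% of all genes. Among the 10254 genes with a mean signal at least that of the dimmest member, 8.7% rose and 11% fell, and 37.5% had an unadjusted p under 0.05. The shares of members called are therefore near those of genes above that floor, and the counts alone do not set the synthetases apart. That floor, 5.115, is set by a mitochondrial gene, AARS2. All cytosolic members read 7.18 or more on average, and no background at their own signal was taken.

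**Figure D1:**
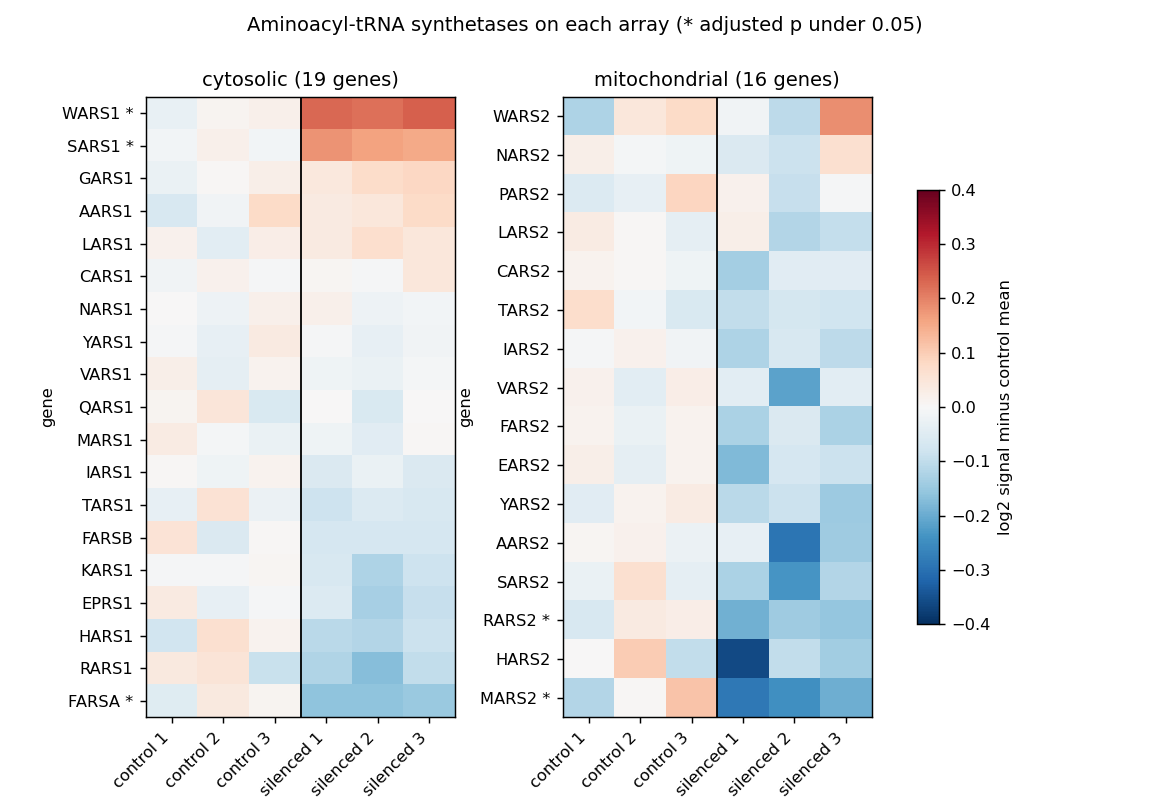
Log2 signal of each of the 35 synthetase genes (rows) on each of the 6 arrays (columns) as the difference from the gene's control mean, with cytosolic genes on the left and mitochondrial genes on the right, ordered by their difference. WARS1 and SARS1 stand out in red on all 3 silenced arrays, while 15 of 16 mitochondrial genes average below their control mean there. Asterisks mark an adjusted p under 0.05.

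WARS1 joins tryptophan to its tRNA. It read 8.63, 8.67 and 8.68 on control arrays and 8.89, 8.88 and 8.90 on silenced arrays, so that every silenced array lay above every control array. The rise was 0.23 ± 0.036 on the log2 scale, or 17.3% (SE; limma adjusted p = 0.00681). Its second probe set rose as well, by 0.20 ± 0.041 (SE; limma adjusted p = 0.0203 over all probe sets, of which 10.1% were called, 4.76% as rises and 5.33% as falls). Its remaining probe sets differed by 0.07 and 0.05 and did not pass. The last of them, at 2.94 on control arrays, lay within the Tag range. The probe sets are not assigned to the outer or inner start by the annotation used here. The rise holds relative to other genes of the array: scaled to the hybridization controls WARS1 was at -0.05 (limma adjusted p = 0.603), and scaled to the poly-A controls at 0.09 (limma adjusted p = 0.2).

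SARS1, the cytosolic serine enzyme, whose product also charges the selenocysteine tRNA, was the other synthetase that rose. Its single probe set read 8.49, 8.52 and 8.49 on control arrays and 8.68, 8.66 and 8.65 on silenced arrays. Again the groups did not overlap, with a rise of 0.16 ± 0.035 or 1.12-fold (SE; limma adjusted p = 0.0235). The rise was 0.16 to 0.17 on leaving out any 1 array, and the call was lost each time (limma adjusted p of 0.0527 to 0.0737). Scaled to the hybridization and the poly-A controls SARS1 was at -0.12 and 0.02, and neither passed. Exact permutation tests on the 6 values gave p = 0.1 for WARS1 and for SARS1, the smallest possible.

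The cytosolic phenylalanine enzyme is built from FARSA and FARSB subunits. FARSA read 7.21, 7.30 and 7.27 on control arrays and 7.10, 7.10 and 7.11 on silenced arrays, without overlap, and fell by 0.16 ± 0.039 (SE; limma adjusted p = 0.0386). FARSB differed by -0.07 ± 0.041 at its brightest probe set (limma adjusted p = 0.355). At another of its 5 probe sets it fell by 0.20 (limma adjusted p = 0.0293 over all probe sets). FARSA kept its call without control replicate 1 (limma adjusted p = 0.0497) and lost it without any other array (0.0831 to 0.128).

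Mitochondrial genes that fell were MARS2, which charges methionine, and RARS2, which charges arginine. MARS2 read 5.99, 6.11 and 6.22 on control arrays and 5.82, 5.86 and 5.91 on silenced arrays, a fall of 0.24 ± 0.062 with no overlap (SE; limma adjusted p = 0.0413). Its other probe sets differed by -0.13 and -0.08, and neither passed. RARS2, with 1 probe set, read 7.76, 7.86 and 7.85 against 7.63, 7.68 and 7.67, a fall of 0.16 ± 0.042 (SE; limma adjusted p = 0.0443). Both calls held without control replicate 1 (limma adjusted p = 0.0244 and 0.045) and were lost without any other array (0.0698 to 0.119 for MARS2 and 0.0914 to 0.143 for RARS2).

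**Figure D2:**
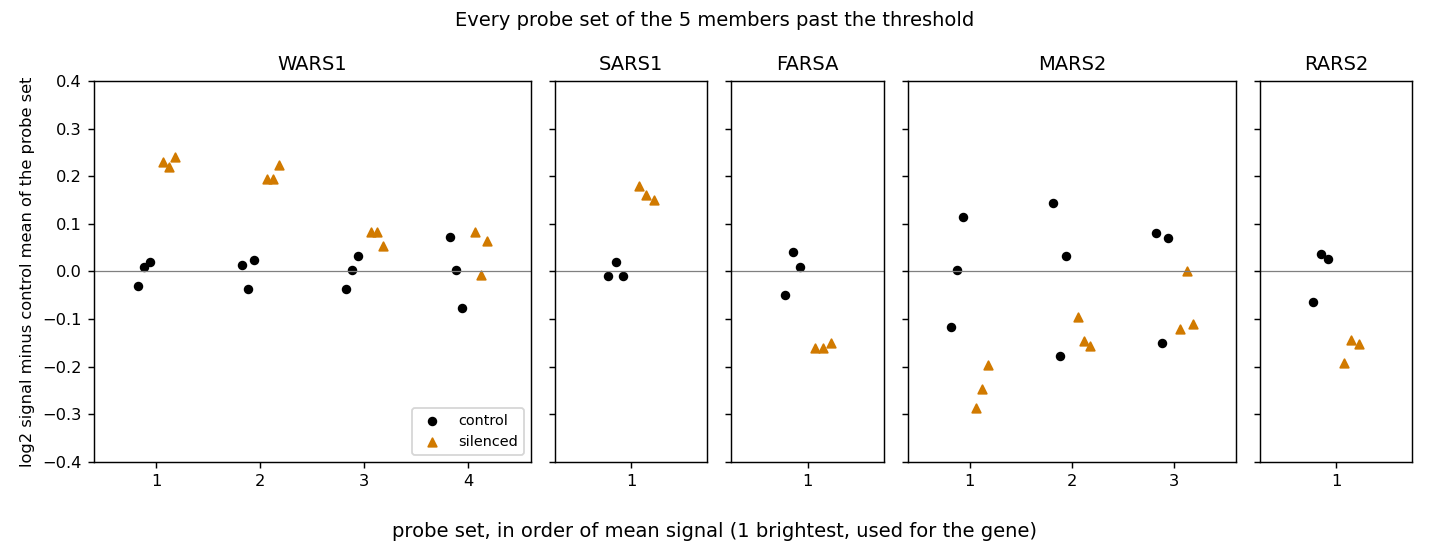
Every probe set of the 5 synthetases past the threshold, as the log2 signal on each array minus that probe set's control mean, with control arrays as dots and silenced arrays as triangles. WARS1 averages higher on silenced arrays at its brightest 3 probe sets, by 0.23, 0.20 and 0.07, and the MARS2 groups overlap at both of its dimmer probe sets.

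The mitochondrial enzymes leaned one way by small amounts. Of the 16 genes 15 had a difference below 0, and 14 after cyclic loess or with the mean of a gene's probe sets. Leaving out 1 array gave 13 to 16, with 13 without silenced replicate 2. Scaled to either set of controls all 16 were below 0, where a constant is subtracted from each array. CARS2 was above 0 at its dimmer probe sets, by 0.03 and 0.13. A difference below 0 was found for 55.1% of all genes and 57.1% of genes of at least the dimmest member's signal. For 10 of the 16 all silenced arrays lay below all control arrays, which was so for 17.9% of all genes and 26.7% of those of such signal. Their median difference was -0.10, with a range from -0.24 for MARS2 to 0.02 for WARS2, and the median of all genes was -0.01. Averaged over the 16 genes, the deviation from the control means was -0.12, -0.13 and -0.08 on silenced replicates 1, 2 and 3, beside -0.01, 0.01 and 0.01 on control arrays. HARS2 (-0.20 ± 0.079), SARS2 (-0.16 ± 0.049) and AARS2 (-0.16 ± 0.065) did not pass, although HARS2 had a larger difference than RARS2 (SE; limma adjusted p = 0.155, 0.0781 and 0.172). Next came YARS2, EARS2, FARS2 and VARS2 at -0.11 to -0.10, then IARS2, TARS2, CARS2 and LARS2 at -0.10 to -0.06, and NARS2 and PARS2 at -0.03. WARS2 varied from 5.52 to 5.81 on silenced arrays and 5.50 to 5.70 on control arrays. The 95% intervals of the 14 genes not called reached from -0.38 (HARS2) to 0.22 (WARS2), so small changes are not resolved by 6 arrays. Larger changes lie outside the intervals only at the deposited scaling. Scaled to the hybridization controls HARS2 was at -0.48, and SARS2 and AARS2 were at -0.44.

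At the deposited scaling the cytosolic class stayed closer to 0 than the mitochondrial one. The median of the 19 was -0.02 (0.013 after cyclic loess, and -0.30 and -0.16 scaled to the hybridization and poly-A controls). Their mean deviation was -0.01, -0.02 and 0.00 on silenced replicates 1, 2 and 3. These values include the called WARS1 (0.23), SARS1 (0.16) and FARSA (-0.16), so they are not those of the remaining genes alone. Of the 7 enzymes of the multi-synthetase complex on the list, 0 rose and 0 fell (limma adjusted p under 0.05). Over all genes 5.77% rose and 6.83% fell, so 0 of 7 does not set the complex apart. The difference was below 0 for 6 of the 7, and the unadjusted p was under 0.05 for RARS1 and KARS1 (limma). RARS1, the arginine enzyme, was at -0.13 ± 0.049, EPRS1, which charges both glutamate and proline, at -0.09 ± 0.040, and KARS1, the lysine enzyme, at -0.09 ± 0.036 (SE; limma adjusted p = 0.138, 0.191 and 0.16). IARS1 for isoleucine was at -0.05, MARS1 for methionine and QARS1 for glutamine at -0.02, and LARS1, the leucine enzyme and a leucine sensor for mTORC1, at 0.05. Outside the complex HARS1 was at -0.10, TARS1 at -0.07, VARS1 and YARS1 at -0.02, NARS1 at -0.0033, CARS1 at 0.02, AARS1 at 0.05 and GARS1 at 0.07. At the dimmest of its 3 probe sets TARS1 fell by 0.19 (limma adjusted p = 0.0379 over all probe sets). VARS1 was lower at its 3 dimmer probe sets, at -0.13, -0.18 and -0.15, and none of these passed. In this class silenced arrays lay wholly below control arrays for 8 genes and wholly above for 4, namely WARS1, SARS1, GARS1 and LARS1, or 42.1% and 21.1%. Over all genes 17.9% lay wholly below and 12.9% wholly above, and over genes of at least the dimmest member's signal 26.7% and 17.9%. The share above is near that of such genes, and the share below is higher. For 13 of the 19 (68.4%) the difference was below 0, against 57.1% of such genes, and for 8 of the 19 after cyclic loess. Intervals of the 16 cytosolic genes not called reached from -0.24 (RARS1) to 0.16 (AARS1).

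Set side by side for 1 amino acid, the cytosolic gene had the higher difference in 15 of 17 pairs, with a median gap of 0.083. EPRS1 and FARS2 each enter 2 of the pairs, so the pairs are not independent. The gap compares changes within an array and is not altered by adding a constant to the array. It was largest for serine, where SARS1 was at 0.16 and SARS2 at -0.16. Relative to the control mean, that gap was 0.31, 0.40 and 0.27 on the silenced arrays and 0.02, -0.04 and 0.03 on the control arrays. For methionine MARS1 was at -0.02 and MARS2 at -0.24, with gaps of 0.27, 0.20 and 0.20 on silenced arrays against 0.15, -0.01 and -0.14. Alanine (AARS1 at 0.05, AARS2 at -0.16) and tryptophan (WARS1 at 0.23, WARS2 at 0.02) followed, and for both the groups overlapped, at 0.07 to 0.34 against -0.07 to 0.10 and at 0.05 to 0.32 against -0.06 to 0.09. Beyond serine and methionine, the groups were apart only for cysteine, isoleucine, valine and tyrosine, and they overlapped in all other pairs. The 15 pairs include gaps as small as 0.017, for EPRS1 with EARS2 and TARS1 with TARS2. The cytosolic value was the lower one for FARSA with FARS2 and EPRS1 with PARS2. Averaged over each class, cytosolic minus mitochondrial was 0.11, 0.10 and 0.073 on silenced arrays and 0.0097, -0.0067 and -0.003 on control arrays. These gaps are given as a description, and no test was made over the class.

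**Figure D3:**
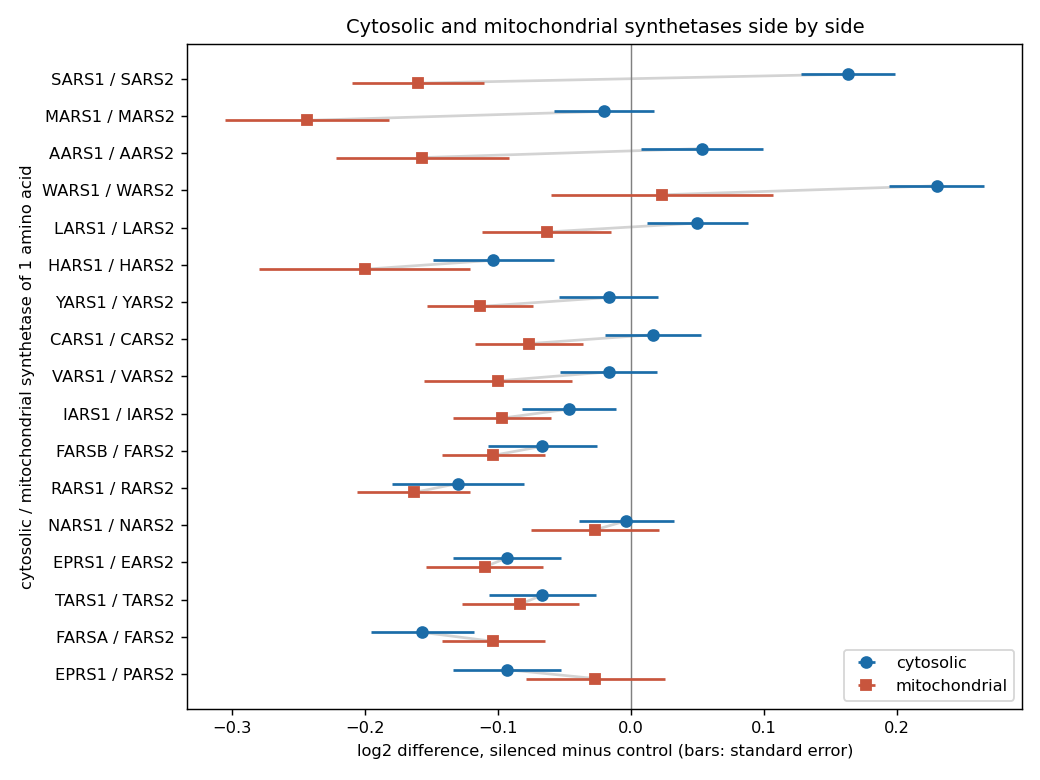
Log2 difference, silenced minus control, of the cytosolic (circles) and mitochondrial (squares) synthetase of 1 amino acid in 17 pairs, with standard errors from the limma fit as bars, ordered by the gap. Serine has the widest gap, 0.32, and 15 of the 17 pairs have the circle to the right of the square.

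Members with C/EBP-ATF letters were compared with those without, as a description. For the 7 cytosolic genes that hold them (AARS1, CARS1, GARS1, IARS1, MARS1, NARS1 and TARS1) differences ran from -0.07 to 0.07, with a median of -0.0033, and 0 rose or fell (limma adjusted p under 0.05; 0 also at an unadjusted p under 0.05). The 9 cytosolic genes without them in these windows ran from -0.16 to 0.23 and include all 3 that were called. LARS1, VARS1 and YARS1 had no window and are in neither set. Over all genes 12.6% were called and 26.5% had an unadjusted p under 0.05. With 7 and 9 genes, 0 and 3 calls are too few to set the sets apart. WARS1 and SARS1, the genes that rose, are thus among those without the letters in the window. Other genes of the amino acid response moved further. Of 30 measured genes of that list 11 rose and 3 fell, with a median difference of 0.11. Leaving out 1 array at a time left 6 to 8 rises and 1 or 2 falls. Without probe sets marked _s_at, _x_at or _a_at 1 rose and 1 fell. The balance turned with the scaling, to 4 rises and 14 falls against the hybridization controls and 6 and 8 against the poly-A controls. DDIT3, the transcription factor CHOP, rose by 1.30, and PPP1R15A, the regulatory subunit of an eIF2 alpha phosphatase, by 0.73. ATF3, a stress transcription factor, and STC2, a secreted glycoprotein, each rose by 0.71. ATF5, a transcription factor of the same family, fell by 0.36, and the amino acid transporters SLC7A5 and SLC1A5 fell by 0.21 and 0.17. ATF4 itself was at 0.01 (limma adjusted p = 0.892) and ASNS, asparagine synthetase, at 0.06 (limma adjusted p = 0.539). The serine synthesis genes PHGDH, PSAT1 and PSPH were at 0.01, -0.12 and -0.09, and none passed, so serine synthesis genes were not called beside SARS1. The 13 genes for eIF2 alpha kinases and their partners had a median of -0.08. EIF2AK2, the kinase PKR that senses double-stranded RNA, rose by 0.80, while EIF2AK1 fell by 0.16 and EIF2B1 by 0.23. Without 1 array the falls of this list came to 0 or 1, and the rise stayed at 1. EIF2AK3, the kinase PERK of endoplasmic reticulum stress, was at -0.18 and did not pass (limma adjusted p = 0.0609). EIF2AK4, the kinase GCN2 that senses uncharged tRNA, was at 0.02 (limma adjusted p = 0.75).

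Genes that interferon gamma is known to induce, as it does WARS1, rose in larger number and by more. Of 23 measured 14 rose and 0 fell, with a median of 0.33, and 12 to 14 rose with any 1 array left out. Scaled to the hybridization controls 10 rose and 6 fell, scaled to the poly-A controls 12 rose and 1 fell, and without probe sets marked _s_at, _x_at or _a_at 5 rose. IRF9, a transcription factor of the interferon response, rose by 1.58, the guanylate-binding protein GBP3 by 0.98, the NLR family member NLRC5, which activates MHC class I genes, by 0.87, and IDO1, which breaks down tryptophan, by 0.81 (limma adjusted p = 2.92e-06, 0.000443, 0.000261 and 0.00188). Of the 14, GBP3, IDO1, GBP1, GBP2 and CD274 lay within the range of the Tag controls on control arrays, where GBP3 read 4.18 and IDO1 3.49. IRF1 rose by 0.73, while CXCL10, CXCL9 and CIITA did not pass (0.19, -0.14 and -0.04). WARS1, with 0.23, changed less than any of the 14. Whether WARS1 and these genes share a cause was not tested.

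In the machinery around the synthetases most changes were falls, and most of these calls did not hold without 1 array. Of 5 measured scaffolds and other charging factors 1 fell, PSTK, the kinase that acts on seryl-tRNA for selenocysteine, by 0.38 ± 0.082 (SE; limma adjusted p = 0.0233), and AIMP1, a scaffold of the multi-synthetase complex, was at -0.06, which was also the median. PSTK kept its call without control replicate 3 or silenced replicate 3 and lost it without any other array. PSTK works downstream of SARS1 in selenocysteine synthesis, and their differences had opposite signs. Among 27 genes of mitochondrial translation and tRNA maturation 4 fell and 1 rose, with a median of -0.08. The falls were 0 without control replicate 2, 2 without silenced replicate 3 and 1 without any other array. GATC, a subunit of the amidotransferase that makes mitochondrial glutaminyl-tRNA in place of a synthetase, fell by 0.35 ± 0.063 (SE; limma adjusted p = 0.0126). The partner subunits GATB and QRSL1 were at 0.07 and -0.04 and did not pass. GFM1, a mitochondrial elongation factor, TRMT10C, a subunit of mitochondrial ribonuclease P, and ELAC2, which trims tRNA ends, fell by 0.18, 0.17 and 0.16. PNPT1, a mitochondrial exoribonuclease that interferon is known to induce, rose by 0.63 ± 0.047 (SE; limma adjusted p = 0.000214). Of 18 genes of RNA polymerase III and tRNA transcription 4 fell and 0 rose, with a median of -0.10, like that of the mitochondrial synthetases. GTF3C6, GTF3C2 and GTF3C4 of factor TFIIIC fell by 0.25, 0.23 and 0.18, and BDP1 of TFIIIB fell by 0.16. Of these falls 3 were left without silenced replicate 3 and 2 without any other array. Of 8 cytosolic elongation genes 0 passed (limma adjusted p under 0.05; 1 at an unadjusted p under 0.05), with a median of 0.01. Lists are given by counts and medians, beside 12.6% called and a median of -0.01 over all genes.

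**Figure D4:**
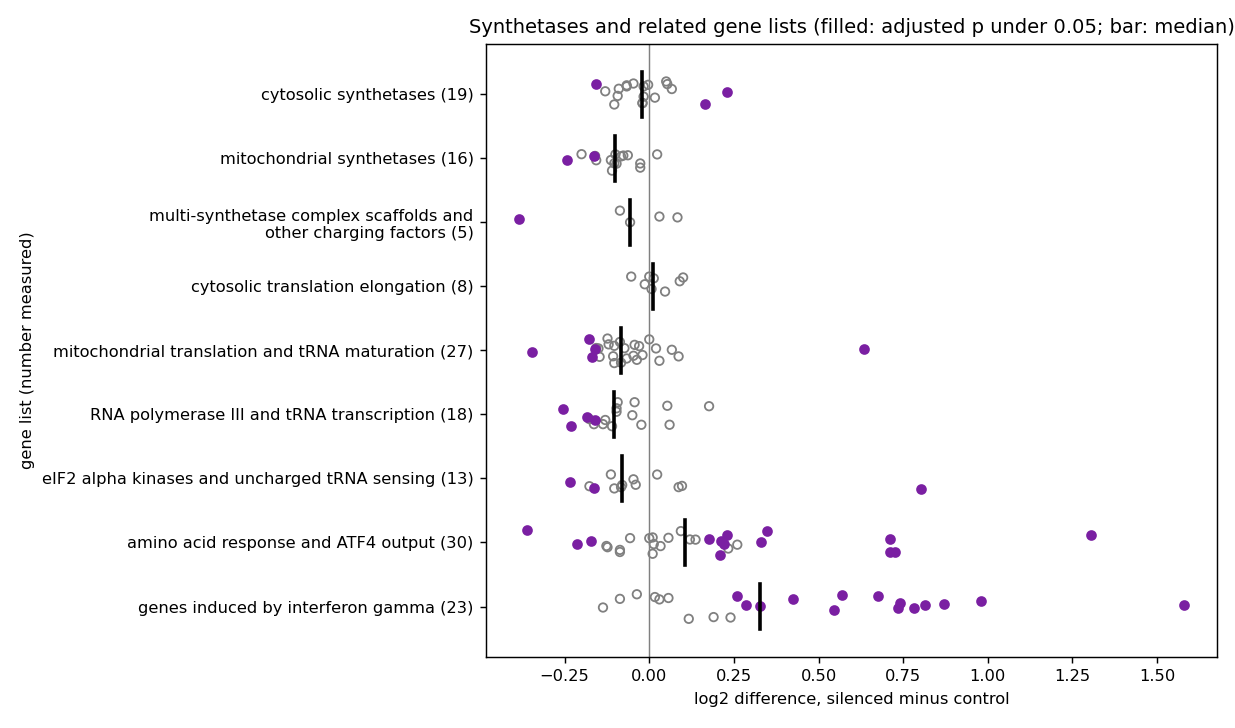
Log2 difference, silenced minus control, of each measured gene in the synthetase classes and 7 related lists, with genes past an adjusted p of 0.05 filled and the median of each list as a vertical bar. The 16 mitochondrial synthetases have a median of -0.10 and the 19 cytosolic ones -0.02, while the interferon gamma list has a median of 0.33.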

How the data were processed

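The authors deposited log2 values of 49372 probe sets on 6 one-colour arrays. The submitters' processing notes name RMA, a method of background correction, quantile normalization and probe summarization, without a version. Array medians were 5.1 to 5.11, and no further normalization was applied. Such values cannot show a shift common to most genes, and small signals are compressed. Platform annotation gave 1 gene symbol for 44994 probe sets, and 4 probe sets that name a member (HARS1, TARS2 or VARS2) beside a second gene were not used. For each gene limma 3.58.1 (R 4.3.3, moderated, 2-sided) compared the 3 silenced with the 3 control arrays, and Benjamini-Hochberg adjustment ran over 18132 genes. The threshold was an adjusted p below 0.05. Every probe set was tested likewise over all 44994. The number of arrays limits the precision. Deviations of same-numbered arrays from their group means correlated by 0.092, 0.058 and -0.0095, none above 0.1, so the numbers were not taken as pairs. Members, related gene lists, motifs and alternatives were chosen with earlier results of these data known. All members are named, and of the related genes at most the 4 largest past the threshold in each direction and list. IRF1, CXCL10, CXCL9, CIITA, ATF4, ASNS, PHGDH, PSAT1, PSPH, EIF2AK3, EIF2AK4, AIMP1, GATB and QRSL1 fall outside that rule and were picked with their values in view. Figures were drawn with matplotlib 3.10.9.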

Additional observations from a re-analysis of the deposited data

How the results depend on the processing

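WARS1 kept its call in 14 of 17 alternatives, SARS1 in 7 of 16, MARS2 in 7 of 17, and FARSA and RARS2 each in 6 of 16. Both control scalings subtract a constant from each array and count as kept for FARSA, MARS2 and RARS2 and as lost for WARS1 and SARS1. SARS1, FARSA and RARS2 have 1 probe set, so the mean of probe sets and the second brightest probe set reuse their main values. The counts therefore do not rank the 5 genes by how steady they are. CDKN1A kept its call in all 17. With all arrays, 2285 genes, 41 genes of the related lists and 5 members were called (2 cytosolic rises, 1 cytosolic fall, 2 mitochondrial falls). Leaving out 1 array gave 1104 to 1575 genes, 23 to 32 of the lists, 1 to 4 members, 1 cytosolic rise each time, 0 to 1 cytosolic and 0 to 2 mitochondrial falls, medians of -0.033 to -0.0083 (cytosolic) and -0.11 to -0.095 (mitochondrial), and -0.36 to -0.25 for LINC00525. Without probe sets marked _s_at, _x_at or _a_at 10 members could be measured (4 cytosolic, 6 mitochondrial), 0 were called (0 rises, 0 falls in either class), 493 genes and 10 list genes were called, the cytosolic median was 0.0017, and LINC00525 at -0.30 lost its call. Among alternatives added after the data were seen, dropping only _s_at and _x_at left 3 members (0 cytosolic falls, 1 mitochondrial fall), and taking the second brightest probe set left 2 (0 falls in either class). Keeping genes with a mean of at least 5 gave 4 mitochondrial falls. Cyclic loess gave 2 members, 0 falls in either class and a cytosolic median of 0.013. Scaling to hybridization controls called 15317 genes, 101 list genes and 33 members (0 rises, 17 cytosolic and 16 mitochondrial falls), with medians of -0.30 (cytosolic), -0.38 (mitochondrial) and -0.29 (all genes). Turned in sign there were AARS1 (-0.23), CARS1 (-0.26), GARS1 (-0.21), LARS1 (-0.23), SARS1 (-0.12), WARS1 (-0.051) and WARS2 (-0.26), since a constant is subtracted from each array. Poly-A scaling called 8894 genes, 78 list genes and 28 members (0 rises, 13 cytosolic and 15 mitochondrial falls), with medians of -0.16, -0.24 and -0.15. A trended, robust variance prior gave 3502 genes and 11 members (4 cytosolic and 5 mitochondrial falls), and no moderation 1314 genes and 2 members (0 falls in either class, LINC00525 at -0.30 not called). The replicate number as a block left 1565 genes and 2 members (1 cytosolic rise, 0 cytosolic falls, 1 mitochondrial fall), and 4 of 6 arrays deviated most like the array of their own number. Apart from the changes that follow from fewer probe sets, fewer arrays or a subtracted constant, the cause was not tested. Signal limits LINC00525 and the dim interferon genes, which lie near the Tag controls.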
